A study of Mus musculus with 4 samples.

Results

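The 6 genes Mecom, Prdm16, Mllt3, Hlf, Zfp521 and Nkx2-3 encode nuclear regulators of transcription, most of them known for sustaining the self-renewal of blood stem cells. They were followed through every probe set that the annotation of the Affymetrix Mouse Genome 430 2.0 array assigns to exactly 1 gene, where that gene is a member. The rule gave 17 probe sets out of 45037 other than controls, between 2 and 4 for each gene. The study compared CD34(-)KSL hematopoietic stem cells (HSC) with CD34(+)KSL multipotent progenitors (MPP), both sorted from mice of the C57BL/6 background with no other genotype or treatment named. KSL cells are the bone marrow fraction gated on c-Kit, on the lack of lineage markers and on a further antigen, and within it CD34 divides stem cells from their early progeny. The 2 arrays of each group were labelled as biological replicates. Separate animals are not named, so the p-values reflect only how far these samples vary, which may be technical. Each array was hybridised with biotinylated cRNA amplified in 2 rounds from RNA equivalent to 3000 cells.

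Self-renewal is the division of a stem cell into at least one daughter that keeps its potential, and it depends on transcription factors and chromatin readers that are turned down as cells commit. Mecom and Prdm16 are related zinc finger proteins with a PR domain, and loss of either depletes blood stem cells in mice. Mllt3 (AF9) is a YEATS domain protein that reads acylated histone H3 and brings DOT1L and the elongation machinery to active genes. Hlf is a PAR bZIP factor that marks stem cells in the blood system. Zfp521 is a large zinc finger protein that recruits the NuRD co-repressor and inhibits the B cell factor Ebf1. Nkx2-3 is an NK-type homeodomain factor, best known from the vessels of the spleen and gut.

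Of the 6 genes, 5 had a promoter window in the RefSeq-derived table (build GRCm38.p6, 250 bases before to 50 after a transcript start). The windows of Mecom and Prdm16 are shown because these 2 paralogous genes, both higher in HSC below, share a run of letters there. The capitals mark that run of 24 bases. It begins 26 bases after the first transcribed base in Mecom (chr3:30509710-30510009, minus strand), where it reaches the end of the window, and 9 bases after it in Prdm16 (chr4:154636824-154637123, minus strand).
Mecom: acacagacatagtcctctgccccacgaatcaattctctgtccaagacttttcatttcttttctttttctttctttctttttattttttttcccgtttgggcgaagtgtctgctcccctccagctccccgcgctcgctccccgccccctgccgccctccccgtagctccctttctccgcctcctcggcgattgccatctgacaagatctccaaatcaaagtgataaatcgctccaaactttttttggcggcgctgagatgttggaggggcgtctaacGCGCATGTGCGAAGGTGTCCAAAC
Prdm16: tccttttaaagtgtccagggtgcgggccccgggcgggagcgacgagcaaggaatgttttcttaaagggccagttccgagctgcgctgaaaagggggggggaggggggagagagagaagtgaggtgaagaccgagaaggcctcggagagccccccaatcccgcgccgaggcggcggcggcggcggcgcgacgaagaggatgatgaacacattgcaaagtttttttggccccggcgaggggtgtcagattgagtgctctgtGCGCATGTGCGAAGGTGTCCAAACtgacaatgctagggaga

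Among all 32851 windows of the table, on either strand, the run was found in 2, those of Mecom and Prdm16. In the other 18 pairs of windows from different member genes, the longest shared run had between 7 and 11 bases. The match is a description of these letters. No measurement made here addresses whether a factor binds them.

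The windows of Mllt3 (chr4:88033358-88033657, minus strand), Hlf (chr11:90390868-90391167, minus strand) and Nkx2-3 (chr19:43612075-43612374, plus strand) are shown because these are the other member genes with a probe set called higher in HSC. Here capitals mark matches, on either strand, to GGGCGG (Sp1-type), CCAAT (the CCAAT box), CCGGAA (ETS-type) or TGACGTCA (a cAMP response element), and where matches overlap or touch the capitals run together.
Mllt3: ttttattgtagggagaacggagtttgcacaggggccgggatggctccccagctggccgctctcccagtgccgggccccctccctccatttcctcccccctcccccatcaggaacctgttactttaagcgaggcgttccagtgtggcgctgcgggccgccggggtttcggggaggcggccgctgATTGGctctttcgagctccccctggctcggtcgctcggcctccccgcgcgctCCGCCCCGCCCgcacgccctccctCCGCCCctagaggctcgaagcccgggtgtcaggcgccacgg
Hlf: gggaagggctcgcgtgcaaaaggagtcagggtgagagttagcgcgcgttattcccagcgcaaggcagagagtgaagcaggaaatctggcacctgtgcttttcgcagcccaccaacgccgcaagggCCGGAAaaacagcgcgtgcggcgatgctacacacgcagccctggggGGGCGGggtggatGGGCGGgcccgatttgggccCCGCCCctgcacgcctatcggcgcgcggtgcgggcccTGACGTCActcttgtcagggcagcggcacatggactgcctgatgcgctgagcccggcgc
Nkx2-3: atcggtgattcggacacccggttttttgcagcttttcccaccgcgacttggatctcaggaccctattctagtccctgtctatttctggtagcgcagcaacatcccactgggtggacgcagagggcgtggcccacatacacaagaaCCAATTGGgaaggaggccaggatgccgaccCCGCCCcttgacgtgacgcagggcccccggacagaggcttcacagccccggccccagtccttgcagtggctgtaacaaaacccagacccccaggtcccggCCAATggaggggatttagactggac

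GGGCGG was present in 5 of 7 member windows, against 35.66% of all windows, and CCAAT in 5 of 7, against 37.41%. Hlf held TGACGTCA, found in 1.79% of all windows, and CCGGAA, found in 14.9%. The MEIS-type motif TGACAG was in 2 of the 7, neither of them printed, against 19.18%. The GATA-type motif AGATAA, the RUNX-type TGTGGT, the PAR bZIP-type TTACNTAA and TATAAA were in none of the 7 windows, against 11.18%, 16.76%, 2.32% and 13.62% of all windows. Only these exact letters were searched, so other forms of a motif can be present. The printed Mecom window, for example, holds TGATAA, a variant of AGATAA that was not counted. The windows printed held more CpG than the median of all windows, with 19 in Mecom, 24 in Prdm16, 29 in Mllt3, 30 in Hlf and 15 in Nkx2-3, against a median of 7. Of all windows, 71.9% held fewer CpG than that of Mecom, 80.0% than Prdm16, 87.1% than Mllt3, 88.3% than Hlf and 65.4% than Nkx2-3. The windows not printed had 9 in Mecom and 4 in Mllt3.

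A probe set reports a transcript as an intensity in arbitrary units, scaled by the authors to one level on every array. The median array intensity was 26.1 and 26.9 units for HSC, against 22.0 and 21.3 for MPP. A floor was set for each array at the highest of 27 probe sets for Bacillus subtilis transcripts, at 16.9 and 16.7 units for HSC and 14.9 and 13.6 for MPP. Pearson's r over tested probe sets reached 0.95 within HSC and 0.97 within MPP, and 0.90 to 0.92 across groups. HSC replicate 2 had an actin 3′ to 5′ signal ratio of 9.42, against 5.26 on HSC replicate 1 and 4.99 and 5.01 on the MPP arrays. Its Gapdh ratio differed less, at 5.81, against 4.88 on HSC replicate 1 and 5.15 and 5.01 on the MPP arrays. The part of HSC replicate 2 in the results was not tested, and values without it are given where they change a call. Leaving out any 1 array leaves 1 array in its group, whose own spread is then not measured. A call gained or lost in such a fit is therefore weak evidence. The 4 arrays limit the precision of every value.

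The labels were checked against cell type markers. All 5 HSC markers measured (Slamf1, Procr, Vwf, Tek and Fgd5) were called higher and all 3 MPP markers (Cd34, Flt3 and Cd48) lower in HSC. The 4 T cell markers measured lay at or under the floor on every array. Of 5 endothelial markers, 3 and 4 exceeded the floor in HSC and 4 and 3 in MPP, with summed levels of 326 and 280 units in HSC, against 398 and 370 in MPP, and the defining marker Cdh5 was at or under the floor on all of them, while Kdr and Tie1 were called higher and Egfl7 lower. Of 5 erythroid markers tested 3 (Klf1, Car1 and Ermap) were called higher. The 6 measured summed to 1007 and 1759 units in HSC, against 154 and 152 in MPP, and Car1 alone read 672 and 1215 in HSC. Gata1, with overlapping groups, and Epor had no call, and Hba-a1 was under the floor in HSC and above it in MPP. Of 5 megakaryocyte markers tested 2 were called higher, and the 6 measured summed to 1060 and 805 units in HSC, against 545 and 392 in MPP, with Gp6 at or under the floor on all arrays. Of 5 myeloid markers tested 1 was called higher and 3 lower, and the 7 measured summed to 2521 and 1950 units in HSC, against 7483 and 8701 in MPP. The 4 B cell markers summed to 174 and 204 units in HSC, against 149 and 205 in MPP, with no call and Cd79a at or under the floor on all arrays. The 5 stromal markers summed to 212 and 246 units in HSC, against 268 and 229 in MPP, and Col1a2 was called higher and Pdgfrb lower. The part of these cell types in the results below was not tested. In sorted cells measured in bulk, fewer cells that express a gene and less RNA per cell cannot be told apart.

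The comparison asked how each regulator differed between HSC and MPP. By the representative probe set of each gene (the tested one with the highest mean), 4 of the 6 genes, Mllt3, Mecom, Prdm16 and Nkx2-3, were called higher in HSC and none lower, at a Benjamini-Hochberg adjusted p under 0.05 in limma. Hlf and Zfp521 narrowly missed that threshold on theirs. Over all 12382 genes tested, 7.71% were called higher and 5.90% lower. The median log2 difference of the 6 representatives was 1.68, against 0.10 over all genes tested. Of the 17 probe sets, 15 passed the filter on dim probe sets. Among these 15, 9 were called higher and none lower, against 5.96% and 4.65% of all 27022 probe sets tested. Both HSC arrays lay above both MPP arrays on 13 of the 15, against 33.3% of all probe sets tested. The 15 hold several probe sets of the same gene, with 4 for Prdm16 and 3 for Mllt3, so they are not independent. The 13 include Nkx2-3 1452528_a_at, which was under the floor on both MPP arrays. Log2 differences are on the log2(intensity + 6.01) scale, except where an alternative changed the pseudocount. This scale understates the change of dim probe sets.

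**Figure D1:**
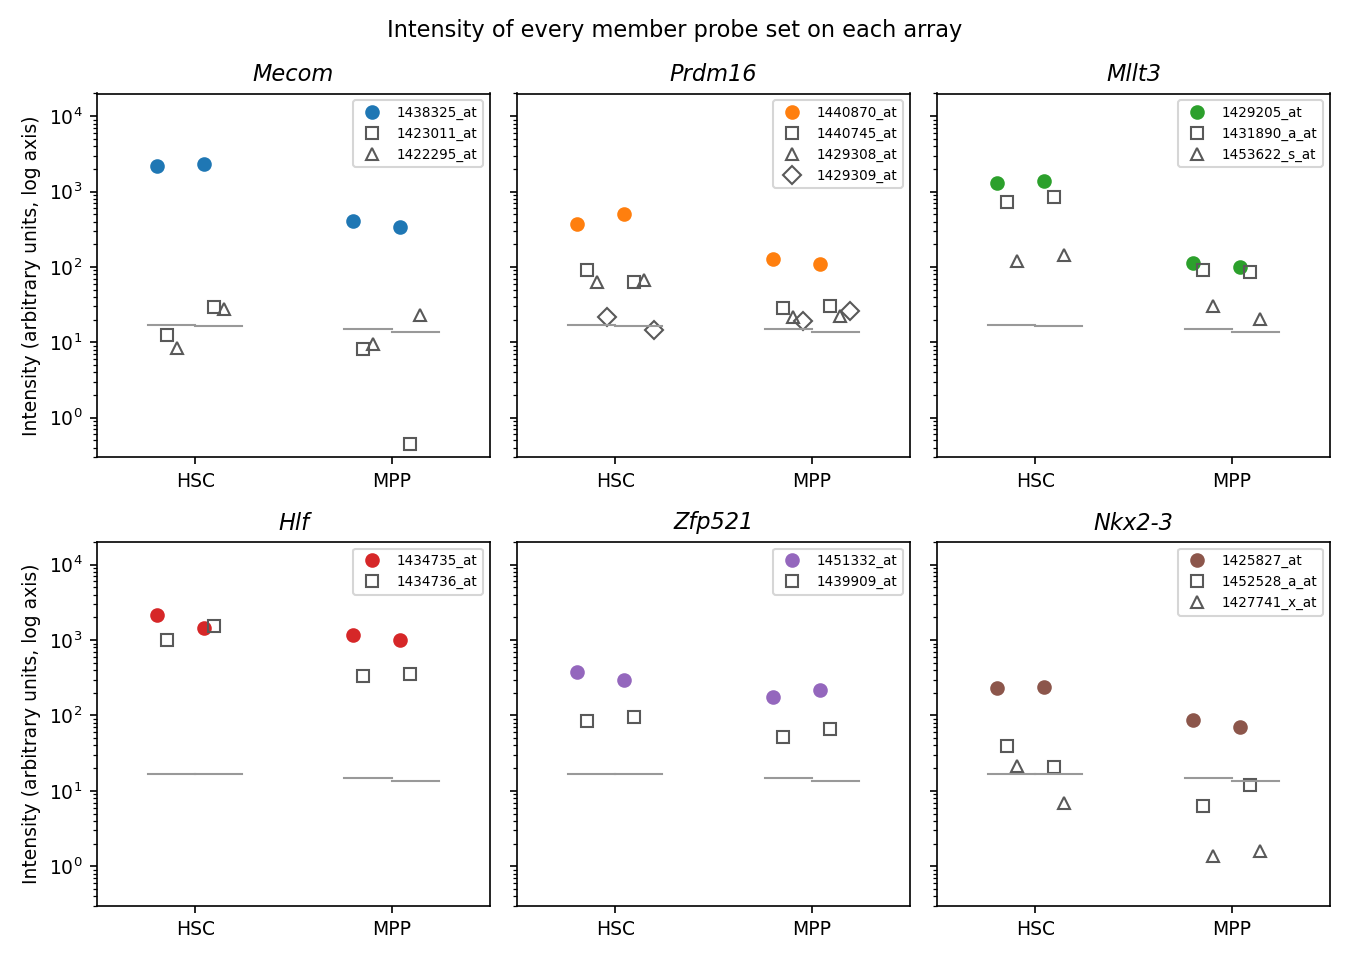
Intensity in arbitrary units on a log axis for every probe set of each member, with the 2 HSC arrays left of the 2 MPP arrays (replicate 1 left of replicate 2). Filled symbols are the representative probe set, open symbols the others, and grey lines the floor of each array; the filled HSC symbols sit above the filled MPP symbols in all 6 panels.

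Mllt3, the YEATS domain reader, had the largest difference of the members. Its representative probe set 1429205_at read 1300 and 1366 units in HSC, against 114 and 101 units in MPP. The groups lay far apart and their own arrays close together, with 1333 ± 46.3 units in HSC and 107 ± 9.39 in MPP (SD, n = 2 each). The log2 difference was 3.56 (SE 0.18, limma adjusted p = 2.26e-06), which ranked 17 of the 12382 genes tested. The remaining Mllt3 probe sets moved the same way. Probe set 1431890_a_at read 727 and 860 units in HSC, against 91.3 and 85.2 in MPP, for a difference of 3.08 on the log2 scale (SE 0.19, limma adjusted p = 9.03e-06). The dimmer 1453622_s_at read 122 and 142 units in HSC, against 30.1 and 20.4 in MPP, for a difference of 2.16 on the log2 scale (SE 0.29, limma adjusted p = 0.00115). All 3 were called and lay above the floor on every array. With the mean of the tested probe sets of a gene in place of the representative, the difference was 2.93 and was still called (limma adjusted p = 7.15e-05).

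Mecom, the zinc finger regulator also known as Evi1 and Prdm3, was measured well by 1 of its 3 probe sets. Probe set 1438325_at read 2187 and 2317 units in HSC, against 406 and 342 units in MPP. Both HSC arrays were several times brighter than either MPP array, and the means were 2252 ± 92.1 units in HSC and 374 ± 45.3 in MPP (SD, n = 2 each). The log2 difference was 2.58 (SE 0.16, limma adjusted p = 1.04e-05), which ranked 91 of the 12382 genes. The other Mecom probe sets were near or under the floor. Probe set 1422295_at read 8.44 and 27.4 units in HSC, against 9.54 and 23.2 in MPP, with overlapping groups and 0.04 between them on the log2 scale (SE 0.56, limma adjusted p = 0.975). Probe set 1423011_at, too dim to be tested, read 12.7 and 29.7 units in HSC, against 8.14 and 0.449 in MPP. HSC replicate 2 lay above the floor on both of these dim probe sets, and MPP replicate 2 on 1422295_at. Averaging the tested probe sets pulled the Mecom difference to 1.31 (limma adjusted p = 0.0105), since that mean includes 1422295_at.

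Prdm16, the PR domain relative of Mecom, is also the regulator that sets brown fat identity. Its representative probe set 1440870_at read 376 and 502 units in HSC, against 127 and 108 in MPP, without overlap. The means were 439 ± 89.2 units in HSC and 118 ± 13.2 in MPP (SD, n = 2 each), which is 1.84 on the log2 scale (SE 0.22, limma adjusted p = 4.67e-04). The gene ranked 242 of 12382. Probe set 1440745_at read 91.2 and 62.3 units in HSC, against 28.2 and 30.5 in MPP (log2 difference 1.20, SE 0.32, limma adjusted p = 0.0348). Probe set 1429308_at read 63.4 and 67.5 units in HSC, against 21.7 and 22.2 in MPP (log2 difference 1.36, SE 0.32, limma adjusted p = 0.0217). These 3 agreed in direction, and the HSC and MPP arrays did not overlap on any of them. The fourth, 1429309_at, stood apart at 21.7 and 14.5 units in HSC, against 19.4 and 26.3 in MPP, and HSC replicate 2 was under the floor (log2 difference -0.26, limma adjusted p = 0.758). The calls of the dimmer probe sets were less stable than that of the representative. Probe set 1440745_at lost its call without HSC replicate 1 (0.95, adjusted p = 0.123), MPP replicate 1 (1.16, adjusted p = 0.118) or MPP replicate 2 (1.25, adjusted p = 0.0953), and 1429308_at without HSC replicate 2 (1.31, adjusted p = 0.0581), MPP replicate 1 (1.34, adjusted p = 0.0737) or MPP replicate 2 (1.37, adjusted p = 0.0733). With no filter on dim probe sets neither was called (adjusted p = 0.109 for 1440745_at and 0.0862 for 1429308_at). Probe set 1440745_at also lost its call with equal medians on all arrays (0.97, adjusted p = 0.0767), after quantile normalization (1.01, adjusted p = 0.0740) and without the trend in eBayes (adjusted p = 0.0773). The gene mean over tested probe sets differed by 1.03 (limma adjusted p = 0.0158).

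Nkx2-3, the homeodomain factor, was called higher on the brightest of its 3 probe sets. Probe set 1425827_at read 231 and 241 units in HSC, against 86.5 and 70.6 in MPP. The means were 236 ± 6.86 units in HSC and 78.6 ± 11.2 in MPP (SD, n = 2 each), and the groups did not overlap. The log2 difference was 1.52 (SE 0.22, limma adjusted p = 0.00174), and the gene ranked 398 of 12382. Its other probe sets were dim, yet both were higher on each HSC array than on either MPP array. Probe set 1452528_a_at read 39.96 and 20.4 units in HSC, against 6.35 and 11.9 in MPP, where both arrays were under the floor. Its log2 difference of 1.23 was not called (SE 0.49, limma adjusted p = 0.150). Probe set 1427741_x_at, not tested, read 21.1 and 6.81 units in HSC, against 1.37 and 1.61 in MPP, and only HSC replicate 1 was above the floor.

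Hlf, the PAR bZIP factor, gave a different size of change on each of its 2 probe sets, both bright. On the representative, 1434735_at, HSC read 2131 and 1434 units, against 1167 and 994 units in MPP. HSC lay above MPP but its arrays differed widely, with 1782 ± 493 units in HSC and 1080 ± 122 in MPP (SD, n = 2 each), and the log2 difference of 0.70 missed the threshold (SE 0.20, limma adjusted p = 0.0518). On 1434736_at, HSC read 994 and 1556 units, against 338 and 350 units in MPP. Here the means were 1275 ± 398 units in HSC and 344 ± 8.22 in MPP (SD, n = 2 each), and the log2 difference of 1.84 was called (SE 0.21, limma adjusted p = 4.34e-04). The HSC arrays were ordered oppositely: replicate 1 was the brighter on 1434735_at and replicate 2 on 1434736_at. The difference between the probe sets was itself not tested. The log2 difference of 1434735_at was 0.98 without HSC replicate 2 and 0.41 without HSC replicate 1. Each of these fits leaves 1 HSC array, so the wide spread between the HSC arrays drops out of it. Without MPP replicate 1 or 2 the difference of 1434735_at was 0.81 and 0.58. Probe set 1434736_at had log2 differences from 1.52 to 2.16 with any 1 array left out. The mean of both probe sets differed by 1.27 (limma adjusted p = 7.85e-04).

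Zfp521, the NuRD-recruiting zinc finger protein, had no call on either of its 2 probe sets. Probe set 1451332_at read 375 and 293 units in HSC, against 177 and 221 in MPP. The groups did not overlap, and the means were 334 ± 58.5 units in HSC and 199 ± 30.7 in MPP (SD, n = 2 each). The log2 difference was 0.73 (SE 0.21, limma adjusted p = 0.0548). Probe set 1439909_at read 85.1 and 95.6 units in HSC, against 51.4 and 67.0 in MPP, again without overlap and 0.57 apart on the log2 scale (SE 0.27, limma adjusted p = 0.225). With 1 array left out, 1451332_at differed by 0.90 without HSC replicate 2 and by 0.55 without HSC replicate 1. Without MPP replicate 1 or 2 it differed by 0.57 and 0.88.

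**Figure D2:**
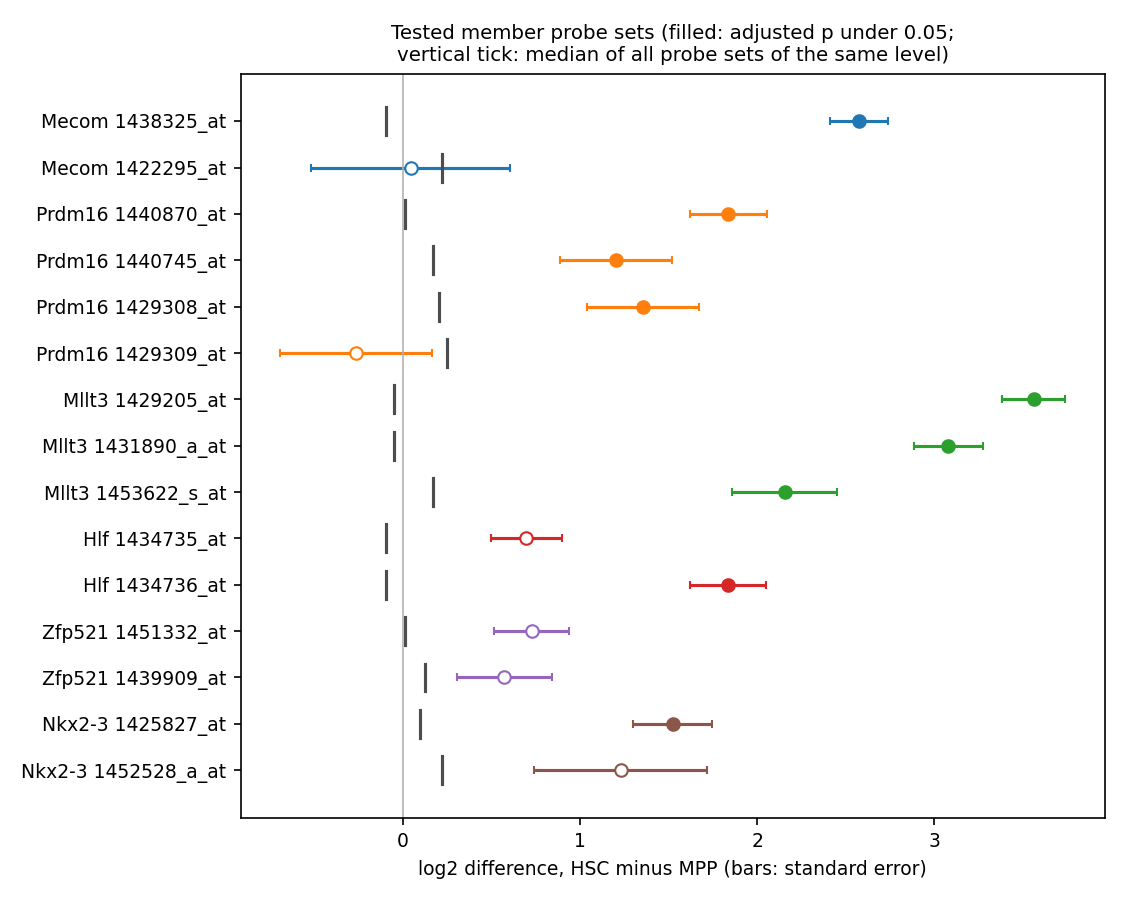
Log2 difference, HSC minus MPP, of the 15 tested member probe sets, with bars for the standard error of the limma fit; filled circles were called and the vertical tick is the median of all probe sets in the same decile of mean level. Of the 15, 14 lie above 0, and Prdm16 1429309_at lies at -0.26.

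As deposited, the difference between groups over all probe sets varied with level, so each member is also read against probe sets of its own decile of mean level. The median log2 difference was 0.22 in the dimmest decile and -0.10 in the brightest, which holds Mecom 1438325_at and both Hlf probe sets. Relative to its decile, Mecom 1438325_at was 2.67 higher, Mllt3 1429205_at 3.61, Prdm16 1440870_at 1.82, Nkx2-3 1425827_at 1.43, Hlf 1434735_at 0.79 and Zfp521 1451332_at 0.71. The dim Mecom probe set 1422295_at (-0.18) and Prdm16 1429309_at (-0.51) lay below the median of their deciles. Under the 13 alternative settings the representatives of Mllt3, Mecom, Prdm16 and Nkx2-3 were called higher in every one, that of Hlf in 6 and that of Zfp521 in 4. For Hlf and for Zfp521, 1 of these was the fit without HSC replicate 2, which leaves 1 HSC array. All 6 stayed positive throughout.

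**Figure D3:**
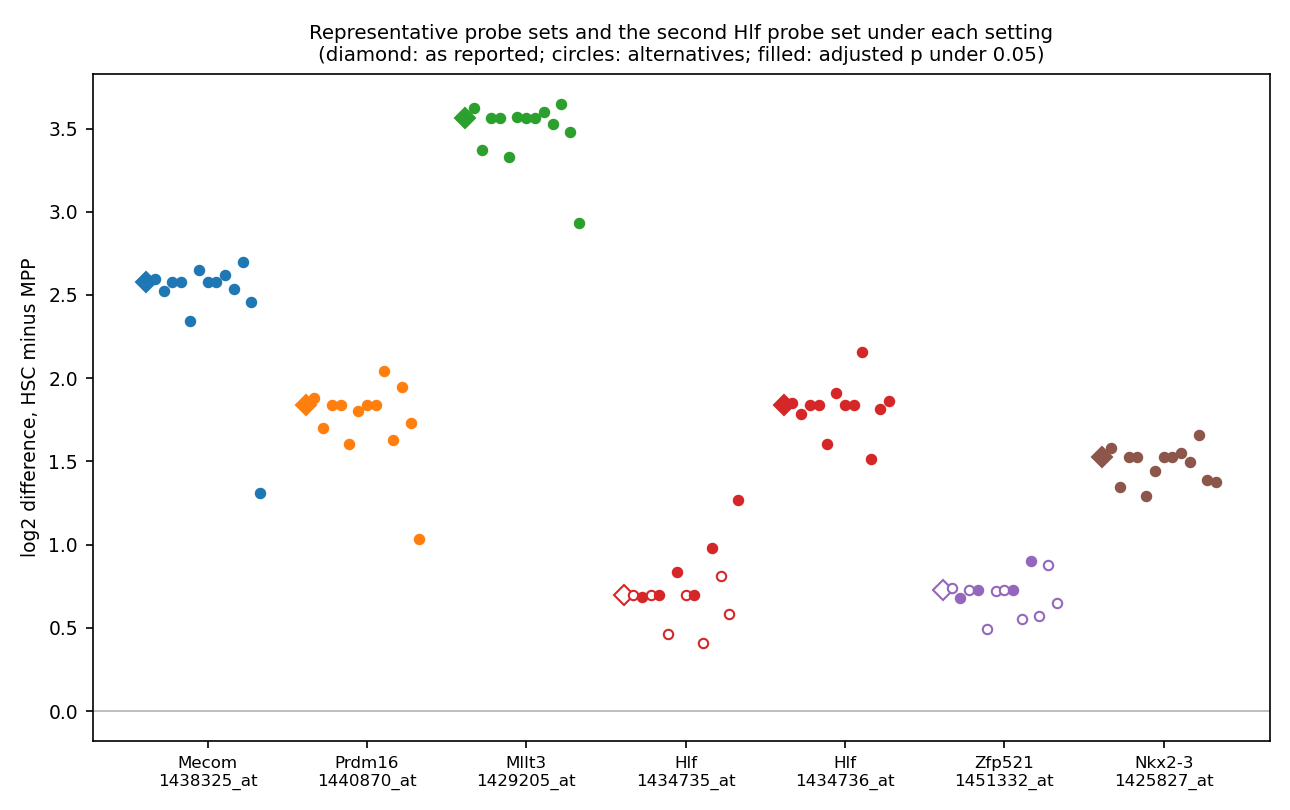
Log2 difference, HSC minus MPP, of the representative probe sets and of the second Hlf probe set as reported (diamonds) and under the alternative settings (circles); filled symbols had an adjusted p under 0.05. Symbols for Mllt3, Mecom, Prdm16, Nkx2-3 and Hlf 1434736_at are all filled, and those for Hlf 1434735_at and Zfp521 are partly open.

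The profile of each representative probe set was set against those of the 12381 other genes, by the Euclidean distance between log2 values on the 4 arrays after centring each gene on its own mean. Genes with clone, predicted, expressed-sequence or mitochondrial (mt-) symbols were left out when the nearest were listed, so a nearer gene of that kind may exist. Distances over 4 arrays are a description, and the arrays are the ones described above. Nearest to Mecom were Klhl4 (distance 0.14), Cracr2b (0.15) and Ttc39b (0.18). Nearest to Mllt3 were the homeobox gene Hoxb5 (0.15), Cavin2 (0.19), which shapes caveolae, and Cyp26b1 (0.23), which breaks down retinoic acid. Hoxb5 read 73.8 and 80.2 units in HSC, against 2.01 and 1.46 in MPP, both under the floor. Nearest to Prdm16 were Lzts1 (0.05), Nrep (0.06) and Mtus1 (0.13), and nearest to Nkx2-3 were the claudin gene Cldn12 (0.05), Slc22a18 (0.07) and the zinc finger factor Egr2 (0.08). In MPP, Cracr2b (6.03 and 4.94 units), Cyp26b1 (5.65 and 2.64) and Mtus1 (14.0 and 12.8) were also under the floor on both arrays. Egr2 was under it on MPP replicate 2 (12.1 units). Distances to these genes rest partly on such dim values. Hlf was closest to Hnmt (0.06), the histamine methyltransferase, Rgs9 (0.09) and Slc27a1 (0.09), none of which was called. Zfp521 was closest to Armcx1 (0.03), Shb (0.04) and Bivm (0.04), also without a call. Armcx1 read 361 and 277 units in HSC, against 167 and 205 in MPP, 0.75 higher on the log2 scale (limma adjusted p = 0.0503).

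Partner genes were examined in 10 lists with 96 distinct genes, 68 of which were tested. The lists held relatives and binding partners of these regulators, their reported targets, and genes combined with Hlf in reprogramming. Of the 68, 9 were called higher and none lower in HSC, with a median log2 difference of 0.17. That is 13.2% and 0%, against 7.71% and 5.90% over all genes tested. Of the 9, 5 came from the reprogramming list and 1, Gata2, from the targets. Among relatives and binding partners only Zfpm1 (1 of 8 tested in its list), Smad3 (1 of 13) and Ell2 (1 of 20) were called. The other lists of relatives and binding partners held no call, so the pooled 13.2% does not describe them. With 7.71% of all genes called higher, 1 call in such a list is not read as a result about that list. At least 1 partner was called lower in some alternatives, given with the processing. Without the trend in eBayes 4 were called higher (Ell2, Runx1t1, Zfp37 and Mycn), and the calls of Zfpm1 (adjusted p = 0.0941), Smad3 (0.182), Lmo2 (0.2001), Meis1 (0.0765) and Gata2 (0.0567) were lost. With no filter on dim probe sets, Smad3 (adjusted p = 0.0690) and Lmo2 (0.109) had no call.

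Among 8 tested genes of the PRDM family and the related FOG proteins, Zfpm1 (FOG1), the partner of GATA factors, was called higher and none lower. It read 153 and 237 units in HSC, against 86.4 and 73.8 in MPP (log2 difference 1.19, limma adjusted p = 0.0154), and lost its call without HSC replicate 2 (0.89, adjusted p = 0.0578) or MPP replicate 2 (1.09, adjusted p = 0.0718). The median of this list was 0.32. Of 13 co-repressor and SMAD partners of Mecom and Prdm16, Smad3, a mediator of TGF-beta signals, was called higher and none lower, with a median of 0.12. Smad3 read 525 and 618 units in HSC, against 345 and 374 in MPP (log2 difference 0.66, limma adjusted p = 0.0402). Its call ended without HSC replicate 2 (0.54, adjusted p = 0.0963), MPP replicate 1 (0.60, adjusted p = 0.255) or MPP replicate 2 (0.71, adjusted p = 0.163). Equal medians on all arrays also ended it (0.42, adjusted p = 0.162). The co-repressors Ctbp1 and Ctbp2 were at 0.20 and 0.27 without a call.

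Mllt3 works with DOT1L and the super elongation complex. Of 20 tested genes of that list, Ell2, an elongation factor, was called higher and none lower, with a median of 0.14. Ell2 read 310 and 411 units in HSC, against 74.5 and 102 in MPP, with no overlap (log2 difference 1.96, SE 0.24, limma adjusted p = 5.58e-04). Dot1l, the histone H3 methyltransferase, was at 0.24 (limma adjusted p = 0.615). None of the 3 YEATS domain genes was called. Mllt1 (ENL), the closest relative of Mllt3, read 48.0 and 63.5 units in HSC, against 76.5 and 33.6 in MPP, with overlapping groups. Yeats2 was at 0.14 (limma adjusted p = 0.733) and Yeats4 at -0.07 (limma adjusted p = 0.844).

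The tested PAR bZIP relatives of Hlf were not called. Dbp read 225 and 242 units in HSC, against 183 and 197 in MPP (log2 difference 0.29, limma adjusted p = 0.412), and Tef was at 0.20 (limma adjusted p = 0.655). All 5 tested genes of the set that has been combined with Hlf to reprogram committed blood cells to a stem-like state were called higher. Their median log2 difference was 1.89, and 3 of them were called without the trend in eBayes. How that set was first chosen was not examined here, so the count is a description and not a test. Runx1t1, a co-repressor of the ETO family, read 83.2 and 130 units in HSC, against 2.39 and 3.90 in MPP. Both MPP values were under the floor, so its mean level rested on the HSC arrays. Mycn, a MYC family factor, read 1696 and 1600 units in HSC, against 459 and 271 in MPP (log2 difference 2.20, limma adjusted p = 2.11e-04). The zinc finger gene Zfp37, at 94.4 and 58.3 units in HSC against 17.7 and 13.9 in MPP, had a log2 difference of 1.89, and Meis1, the HOX cofactor, one of 0.99, with adjusted p of 0.00765 and 0.00265. Lmo2, the adaptor of the SCL complex, read 4016 and 4347 units in HSC, against 2727 and 2820 in MPP (0.59, adjusted p = 0.0257). Leaving out MPP replicate 1 (0.57, adjusted p = 0.271) or MPP replicate 2 (0.61, adjusted p = 0.230) ended that call, as did equal medians on all arrays (0.36, adjusted p = 0.121).

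Zfp521 binds NuRD and EBF factors. None of the 13 NuRD genes was called, and their median was -0.13. Mta2 read 145 and 68.2 units in HSC, against 157 and 236 in MPP, at -0.91 (limma adjusted p = 0.118), and Mbd3 was at -0.54 (adjusted p = 0.248). No gene of the EBF list was bright enough to be tested. Ebf1, the B cell factor that Zfp521 inhibits, read 1.58 and 10.9 units in HSC, against 12.8 and 13.5 in MPP, under the floor on all arrays, as was the Zfp521 paralog Zfp423. Of the NK homeobox family, 3 of the 11 genes on the array were tested and none was called. Nkx2-9 was at 0.93 (limma adjusted p = 0.359) and Nkx2-6 at -0.38 (adjusted p = 0.734), with overlapping groups for each.

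Of 4 tested genes reported as targets of the members, Gata2, a stem cell transcription factor that Mecom is known to bind, was called higher and none lower. It read 849 and 1188 units in HSC, against 410 and 340 in MPP (log2 difference 1.41, limma adjusted p = 0.00151), without overlap, and had no call without the trend in eBayes (adjusted p = 0.0567). The others had no call: Hgf, reported downstream of Prdm16, was at 0.46 (adjusted p = 0.450), Madcam1, an Nkx2-3 target in vessels, at 0.31 (adjusted p = 0.741), and Spi1 at 0.06 (adjusted p = 0.942).

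**Figure D4:**
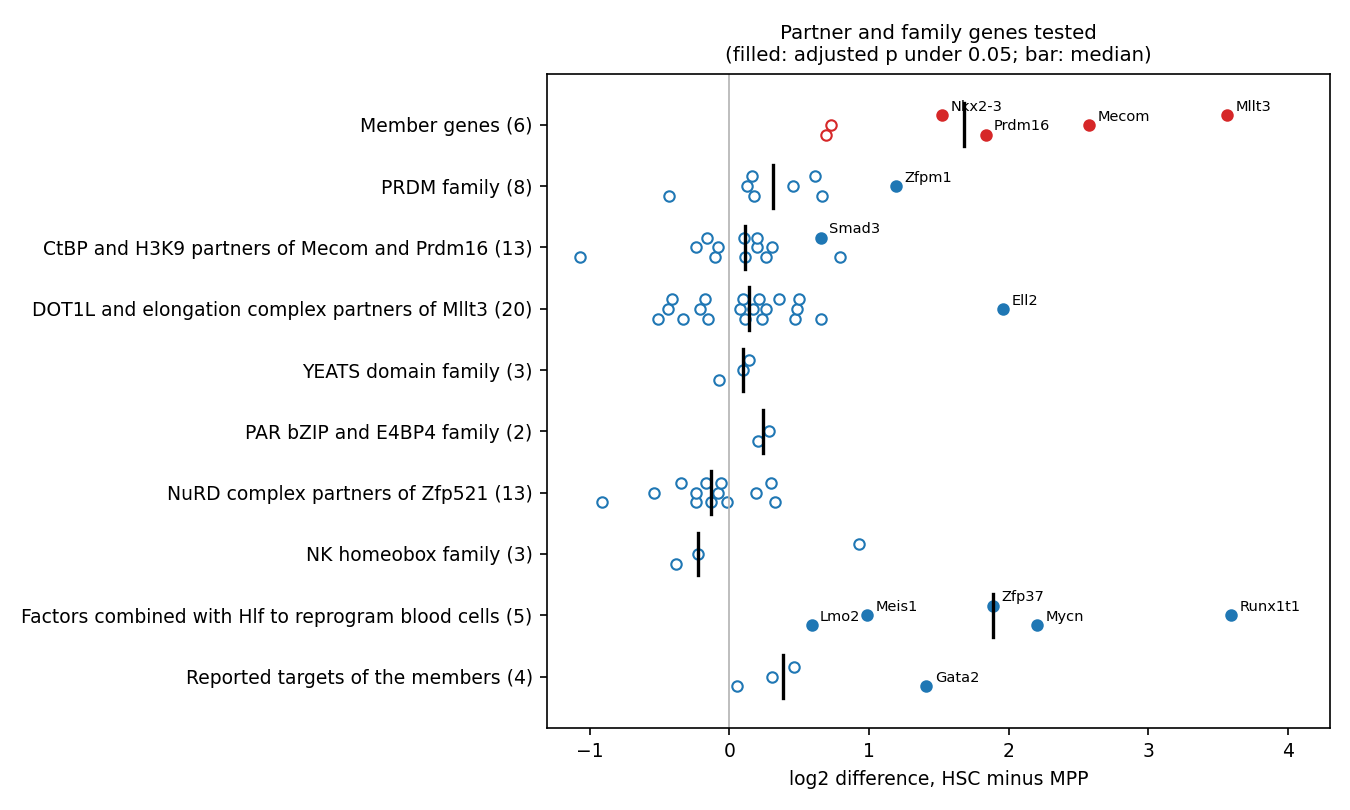
Log2 difference, HSC minus MPP, of the 6 member genes (red) and of the tested genes of each partner list (blue, number tested in parentheses), with the median as a bar; filled circles had an adjusted p under 0.05. The list combined with Hlf is the one in which all tested genes are filled.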

How the data were processed

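The authors deposited one intensity per probe set and array, in arbitrary linear units. The sources used here do not name the software that made them. In the deposited table the trimmed mean (2% off each end) was near 100.0 on each array, so arrays had been scaled alike, and no detection calls were used. Of 45101 probe sets, 64 controls were left out. Symbols came from the array annotation, updated through gene identifiers with a RefSeq table of GRCm38.p6. Of the rest, 34945 probe sets had 1 symbol (34741 matched the table), 932 several and 9160 none.

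The scale was log2(intensity + 6.01), with a pseudocount of 0.25 times the overall median. The lowest 40% of probe sets by mean level were left out, which left 27022. HSC and MPP were compared with limma 3.58.1 under R 4.3.3 (lmFit, then eBayes using a trend), 2-sided, without covariates, over all probe sets tested, with Benjamini-Hochberg adjustment at 0.05. Residual degrees of freedom were 2 and prior ones 8.48: most of the spread estimate comes from other probe sets. The script was tested on simulated data. All 6 members and all their probe sets are named. From each partner list up to 4 called genes are named, or the 2 with the smallest p where none was called, and 3 nearest profiles per member. Ctbp1, Ctbp2, Dot1l, Mllt1, Ebf1, Zfp423, Hgf, Madcam1 and Spi1 were named besides, for their roles, and Lmo2 as the remaining called gene of its list, all after their values were seen. The members and lists were chosen with earlier results of these data known. Alternatives changed the pseudocount, the filter, the normalization, the prior variance, the choice of probe set and the arrays used, and added the replicate number as a block.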

Additional observations from a re-analysis of the deposited data

How the results depend on the processing

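The representatives of Mllt3, Mecom, Prdm16 and Nkx2-3 kept direction and call under all 13 alternatives. Hlf 1434735_at became called with the pseudocount raised to the overall median (0.69), with the lowest 60% left out (0.70), after quantile normalization (0.83), with a replicate block (0.70) and with the mean of its probe sets (1.27). Leaving out 1 array gave 0.41 to 0.98. Zfp521 1451332_at became called with the pseudocount at the median (0.68), the lowest 60% left out (0.73) and the replicate block (0.73), and leaving out 1 array gave 0.55 to 0.90. The called members thus numbered 4 to 6, and 6 with the replicate block, against 4 without it. With the block, the limma adjusted p of Mllt3 1429205_at was 9.77e-61, against 2.26e-06 without it. Values that small from 4 arrays show that the block fit takes little from the spread of each probe set itself. Its calls are therefore not used as support. The dim Mecom probe set 1422295_at turned negative with equal array medians (-0.19), after quantile normalization (-0.17) and without HSC replicate 2 or MPP replicate 1 (-0.56 to 0.65 over the 4 omissions). Partner genes called higher fell to 4 without the trend in eBayes. Partner genes called lower numbered 1 with equal array medians, 1 with the replicate block, and 0 to 3 when 1 array was left out, against 0 as reported. Equal array medians moved the median of all probe sets to -0.13 from 0.11, with 1020 called higher and 2379 lower, against 1611 and 1257. Without the trend 633 were called higher and 374 lower, and with the block 2525 and 1833. Deviations of arrays with the same replicate number correlated at 0.03, so the numbers are not taken to pair the samples. Signals at or under the floor on at least 1 array, as on 5 of the 17 probe sets, limit what the dim probe sets can show. Some called probe sets were also close to the floor in MPP, such as Prdm16 1429308_at at 21.7 and 22.2 units, against floors of 14.9 and 13.6. The causes of these changes were not tested, except that averaging the probe sets of a gene includes the dim ones by construction.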
